A study of Mus musculus with 3 samples.

Results

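The proximal part of the large olfactory receptor cluster of mouse chromosome 2 was taken as the genes of the promoter table whose transcription start position lay at or above 85 Mb and below 87 Mb of the chromosome (mm9) and that had 1 position each. The rule gave 80 genes, from Olfr987 at chr2:85179407 to Olfr1111 at chr2:86995850, out of 1085 positions in the table. A further 10 rows of the interval were left out: Olfr1020, Olfr1026, Olfr228 and Olfr1076 had 2 positions each and 2 rows were pseudogenes without an Olfr number. The rule used coordinates and names, not array values. The sources do not say whether the positions themselves were set on these arrays, so counts of regions at them may not be independent of the arrays. Inside the upper border stood Olfr1111, with highest scores of 0.35, 1.71 and 1.96 on Stringent, High Coverage 1 and High Coverage 2. The next gene outside it, Olfr1112 at chr2:87028060, had 6.09, 1.61 and 1.22. Below the first gene the nearest other row on the chromosome was Olfr368 at chr2:37181802, with 4.09, 3.49 and 2.05.

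Olfactory receptors are G protein-coupled receptors that bind odorants at the cilia of olfactory sensory neurons. A mature neuron transcribes 1 allele of 1 receptor gene, so RNA of the whole epithelium holds the transcripts of many receptors, each from few cells. The genes lie in clusters that arose by repeated duplication, and neighbours in a cluster are often close relatives. The receptors of this cluster belong to class II, the larger of the classes of mammalian odorant receptors. The protein is as a rule encoded by 1 exon without introns, preceded by 1 or more short noncoding exons that can lie several kilobases upstream.

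The study mapped capped RNA starts of receptor genes by RLM-RACE, in which an adapter is ligated to decapped 5′ ends and the product is amplified from primers against conserved receptor sequence. A sample was a pool of olfactory epithelium from 5 C57/Bl6 adults, 6 to 8 weeks of age, and the labels give no other genotype or treatment. Stringent (1 array) carried product of a nested PCR, and High Coverage (2 arrays) product of PCR without nesting. The headers of the files name the input of High Coverage 1 as female and that of High Coverage 2 as male. Sex and array therefore cannot be told apart there. The sources do not say whether the pools were of different animals. With 1 array against 2, no test between the groups was run, and every interval below covers counting over genes only. In pooled tissue, fewer neurons that chose a gene and less RNA per neuron cannot be told apart. Markers of neurons and of other cells of the epithelium were not analysed here.

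Sequence upstream of the genes was read from RefSeq windows of build GRCm38.p6, which reach 250 bases before and 50 after the annotated gene start. Of the 80 genes 59 had a window, all on the strand that the promoter table gives. In 40 of the 59 (67.8%) an ATG stood at the first base after the gene start, so the annotation began there at a possible coding start and not at a mapped transcript start. The share was 72.4% over 948 receptor windows and 5.83% over all 32851 windows. These windows are therefore not placed on the mapped positions, and the distance between them was not measured, since the builds differ. The next 7 sequences show a near-identical neighbour pair, 1 match of each motif that was searched, and 3 adjacent relatives at their ATG. Each is written 5′ to 3′ on the minus strand of chromosome 2, except Olfr1093 on the plus strand. For the first 4 the 250 bases before the gene start are given, at chr2:86558139-86558388, chr2:86598810-86599059, chr2:86782295-86782544 and chr2:86892164-86892413, with motif matches in capitals. For Olfr1098, Olfr1099 and Olfr1100 the 70 bases at chr2:86923481-86923550, chr2:86959407-86959476 and chr2:86978745-86978814 are given, with the ATG in capitals.
Olfr1080: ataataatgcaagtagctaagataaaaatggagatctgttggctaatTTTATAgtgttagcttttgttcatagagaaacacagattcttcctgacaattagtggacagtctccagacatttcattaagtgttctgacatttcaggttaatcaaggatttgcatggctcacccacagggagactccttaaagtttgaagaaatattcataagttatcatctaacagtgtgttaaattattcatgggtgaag
Olfr1082: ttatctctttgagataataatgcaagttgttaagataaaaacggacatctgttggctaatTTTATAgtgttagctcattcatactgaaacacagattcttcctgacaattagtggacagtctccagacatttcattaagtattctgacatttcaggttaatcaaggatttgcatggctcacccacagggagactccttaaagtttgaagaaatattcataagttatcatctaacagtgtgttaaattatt
Olfr1093: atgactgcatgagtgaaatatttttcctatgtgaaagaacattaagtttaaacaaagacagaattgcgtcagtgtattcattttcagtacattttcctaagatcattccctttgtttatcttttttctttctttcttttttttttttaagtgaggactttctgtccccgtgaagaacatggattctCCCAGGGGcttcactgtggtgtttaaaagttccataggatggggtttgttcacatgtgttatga
Olfr1097: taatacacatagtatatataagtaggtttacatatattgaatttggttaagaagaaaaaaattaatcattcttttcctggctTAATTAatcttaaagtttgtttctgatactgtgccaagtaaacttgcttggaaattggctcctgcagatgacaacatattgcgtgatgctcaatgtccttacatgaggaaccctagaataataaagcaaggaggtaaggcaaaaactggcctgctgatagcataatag
Olfr1098: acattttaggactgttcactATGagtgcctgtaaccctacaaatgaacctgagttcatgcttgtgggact
Olfr1099: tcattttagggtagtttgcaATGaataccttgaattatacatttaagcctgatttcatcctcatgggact
Olfr1100: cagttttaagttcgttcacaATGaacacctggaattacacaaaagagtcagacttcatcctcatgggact

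The motifs were searched on both strands of each window. TAATTA, the core that homeodomain factors such as Lhx2 bind, stood in 12 of 59 windows (20.3%), against 18.6% of receptor windows and 5.29% of all windows. Olfr1097 above holds it as printed. CCCNNGGG, the core bound by the Olf/Ebf factors, stood in 1 window (1.69%), that of Olfr1093, against 3.06% and 13.7%. TATAAA, the letters of a TATA box, stood in 27 windows (45.8%), against 41.0% and 13.6%. In Olfr1080 and Olfr1082 it appears as its reverse complement. In the 19 windows without an ATG at the gene start the counts were 4, 1 and 7, or 21.1%, 5.26% and 36.8%. Receptor windows of that kind, 262 in all, had 18.3%, 7.63% and 34.4%. The windows were rich in A and T, with a median of 68.3% and a range of 59.3% to 78.0%, against medians of 65.0% in receptor windows and 47.3% in all windows. A match is a description of letters only.

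Signal at a position was read as the highest MAT score of any probe within 100 bp. MAT scores set each probe against others of like sequence on its own array, so scores of different arrays were also expressed as percentiles among the 2188086 scored probes of each array. All 80 genes were scored, by 22 to 40 probes each. On Stringent the scores ran from -0.01 to 23.67 with a median of 4.34 (95% interval of the median 2.55 to 7.70). On High Coverage 1 they ran from -0.73 to 24.03 with a median of 1.48 (1.07 to 2.15), and on High Coverage 2 from -0.67 to 17.34 with a median of 2.29 (1.78 to 3.05). The medians over all scored rows were 4.15, 1.44 and 2.06, each inside the interval of these genes. As percentiles the medians were 94.5, 91.6 and 93.2, against 94.4, 91.3 and 92.4 over all scored rows. The 121 genes of the rest of the cluster, between 87 and 91 Mb, had medians of 94.0, 91.8 and 92.5. The typical gene here was thus as high on each array as the typical row of the table. Each value is the highest of 22 to 40 probes but is ranked among single probes, so a high percentile alone does not show signal. With the mean score of the window in place of the highest, the median percentiles of the 80 genes were 92, 70.8 and 77.9.

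**Figure D1:**
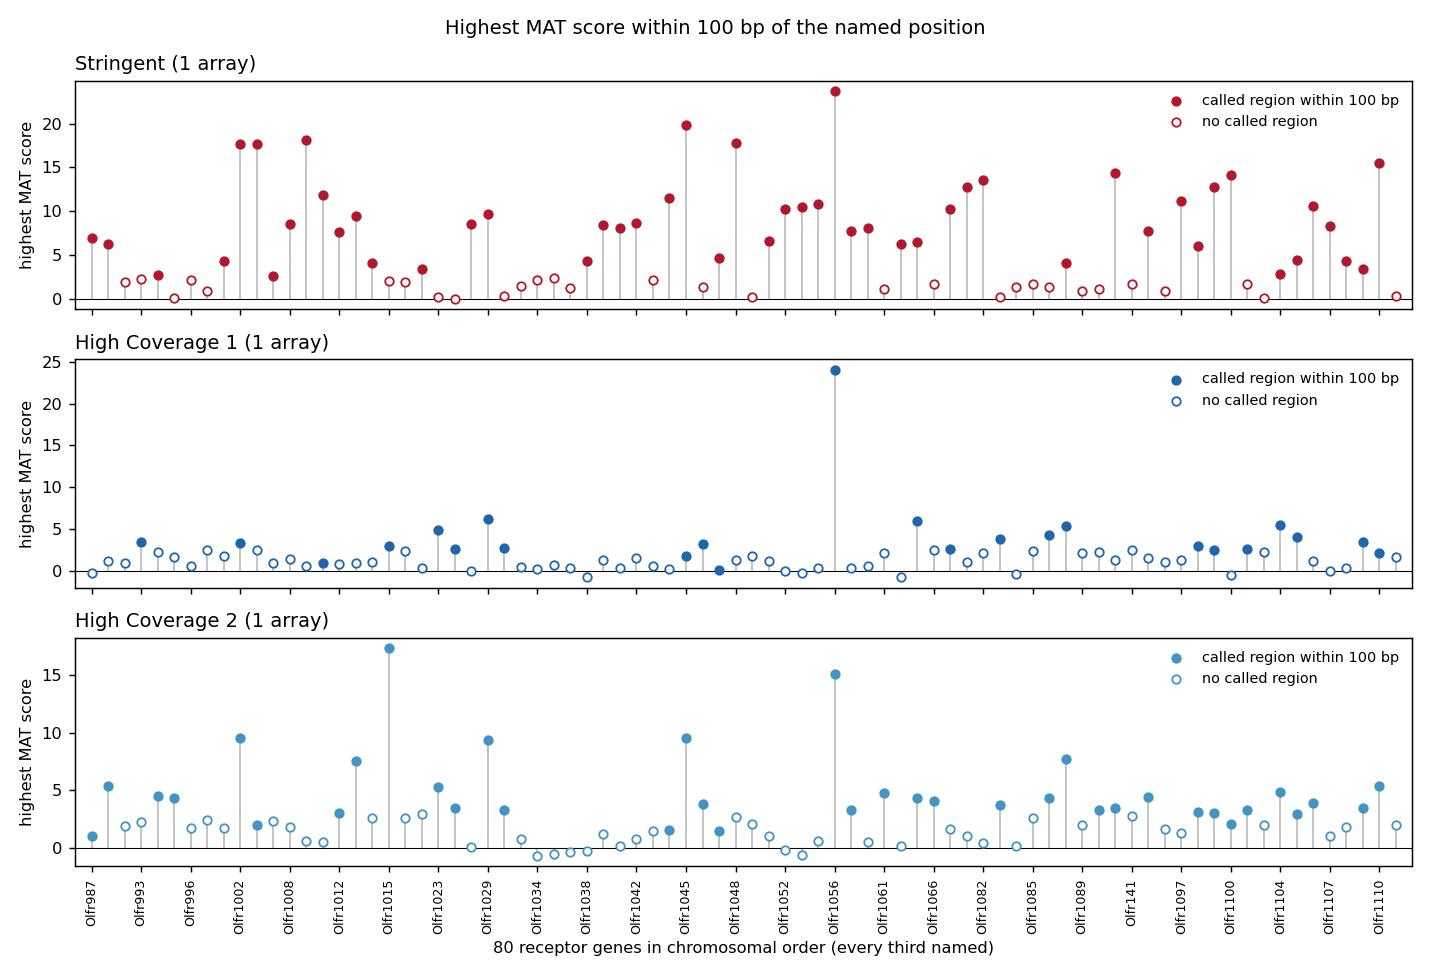
Highest MAT score (no unit) within 100 bp of the start position for the 80 genes in chromosomal order, 1 panel per array, with filled points where the authors called a region there. Olfr1056 stands highest on Stringent and High Coverage 1, and Olfr1015 on High Coverage 2.

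A region called by the authors lay within 100 bp of the position of 50 of 80 genes on Stringent, which is 62.5% (51.0 to 73.1, exact Clopper-Pearson, 95%). The background over the table was 61.7%. On High Coverage 1 it was 24 genes, 30% (20.3 to 41.3), against a background of 36.4%. On High Coverage 2 it was 37 genes, 46.2% (35 to 57.8), against 43.6%. Each background value lay inside its interval. Among the 121 genes of the rest of the cluster the shares were 65.3%, 33.9% and 43.0%. A region can reach into the window by its edge while the probes of the window stay under the calling threshold. On High Coverage 1 this was so for Olfr1047, with a highest score of 0.16 beside a region that scored 3.78.

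Regions on all 3 arrays were found at 13 receptor genes, Olfr1002, Olfr1029, Olfr1045, Olfr1047, Olfr1056, Olfr1065, Olfr1087, Olfr1098, Olfr1099, Olfr1104, Olfr1105, Olfr259 and Olfr1110. The background was 17.3% of rows. The regions of a gene each reached within 100 bp of its position but did not always overlap each other, as at Olfr1099 and Olfr1105. The highest scores within 100 bp at these 13 genes ran from 2.87 to 23.67 on Stringent, from 0.16 to 24.03 on High Coverage 1 and from 1.47 to 15.13 on High Coverage 2. Olfr1056 had the highest score of all 80 genes on Stringent, 23.67, and on High Coverage 1, 24.03, with 15.13 on High Coverage 2. Its region was chr2:86202429-86202712 on Stringent and chr2:86202439-86202707 on both High Coverage arrays, with the start position, 86202666 on the minus strand, inside. The edges of the 3 regions thus differed by few bases. Olfr1002 followed by its lowest percentile, with 17.66, 3.37 and 9.51 on Stringent, High Coverage 1 and High Coverage 2. Olfr1029 had 9.63, 6.17 and 9.39, and the 5′ edge of its region lay 49 bp upstream of the position on all 3 arrays.

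The other genes named for a high lowest percentile over the 3 arrays differed in where they were highest. Some of their scores were under the calling threshold, as those of Olfr1099 and Olfr1110 on High Coverage 1, where it was 2.53. Olfr1065 had 6.47, 5.99 and 4.35 (percentiles 95.4, 98.3 and 96.4), and Olfr1105 had 4.37, 4.10 and 2.98 (94.5, 97.5 and 94.8). Both were highest on Stringent by score and on High Coverage 1 by percentile. The High Coverage regions of Olfr1105 lay upstream of the position, from -195 to -3 bp and from -195 to -51 bp. Its Stringent region ran from -48 to 125 bp. Olfr1099 had 12.76, 2.47 and 3.05, and Olfr1110 had 15.48, 2.13 and 5.33, both highest on Stringent by score and by percentile. The Stringent region of Olfr1110, chr2:86979952-86980493, carried the highest score of the regions at these positions, 28.11. Olfr1098 had 6.06, 2.97 and 3.14. The pattern of Olfr1045 was close to that of Olfr1110, with 19.86, 1.85 and 9.58.

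A region on Stringent and on neither High Coverage array was found at 23 genes, against a background of 28.3%. In these genes the Stringent scores ran from 2.55 to 18.15, and the highest were those of Olfr1009 (18.15) and Olfr1048 (17.77). Their scores ran from -0.73 to 2.13 on High Coverage 1 and from -0.59 to 2.96 on High Coverage 2. A region on Stringent and High Coverage 2 only was found at 12 genes (background 12.4%), with Olfr154 highest on Stringent at 17.67. The Stringent and High Coverage 1 pattern was found at 2 genes, Olfr1010 and Olfr1079 (background 3.59%).

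Regions on both High Coverage arrays and not on Stringent were found at 8 genes, against a background of 9.77%. These were Olfr1015, Olfr1023, Olfr1024, Olfr1030, Olfr1046, Olfr1083, Olfr1086 and Olfr1101. Their Stringent scores ran from -0.01 to 2.05, all under the Stringent calling threshold of 2.52. Olfr1015 had the highest High Coverage 2 score of the 80 genes, 17.34, beside 3 on High Coverage 1 and 2.05 on Stringent. A region on High Coverage 2 alone was found at 4 genes (Olfr995, Olfr1061, Olfr1066 and Olfr1090; background 4.06%) and on High Coverage 1 alone at Olfr993 (background 5.71%).

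No array had a region at 17 genes, against a background of 18.8%. Their highest scores were 2.39 (Stringent), 2.53 (High Coverage 1) and 2.76 (High Coverage 2), and some of these lay close to the calling thresholds. The lowest of the 80 by their best percentile were Olfr1095 (0.91, 1.03 and 1.63), Olfr1037 (1.19, 0.36 and -0.34) and Olfr1084 (1.30, -0.41 and 0.18). All 17 had a Stringent region further downstream, as did 79 of the 80 genes. Over all rows with no Stringent region at the start the share was 76.4%. These are described with the downstream regions.

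Across the 80 genes the High Coverage arrays ranked the genes more alike than either did with Stringent. Pearson's r of the scores was 0.65 and Spearman's rho 0.71 between the High Coverage arrays. Between Stringent and High Coverage 1 they were 0.21 and -0.23, and between Stringent and High Coverage 2 they were 0.19 and -0.10. These are descriptions over genes that share their libraries. The median absolute difference between the High Coverage percentiles of a gene was 3.18 points, against 4.33 over all scored rows.

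A difference was called large when it passed 34.3 percentile points, the 95th percentile of the absolute difference between the High Coverage arrays over all scored rows. Stringent was higher than the mean of the High Coverage arrays by more than this at 3 genes (3.75%), against a background of 8.8%. Olfr1054 had a Stringent score of 10.47 beside -0.26 and -0.59 on the High Coverage arrays, or percentiles of 96.7, 60.2 and 47.5. Olfr1038 had 4.30, -0.67 and -0.26, or percentiles of 94.4, 40.9 and 60.5. Olfr1062 had 6.22, -0.73 and 0.19, or percentiles of 95.3, 38.0 and 73.6. In each of these 3 receptor genes Stringent alone had a region. The count rests on the scale: on a scale of median and MAD it was 34 genes, with 40.7% of all rows, and with the mean score of the window in place of the highest it was 16, with 23.5%. Without High Coverage replicate 2 it was 6, with 11.4% of all rows.

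No gene was lower on Stringent by more than the limit (background 1.2%). The most extreme within it were Olfr1024 (-0.01, 2.64 and 3.48), Olfr1023 (0.14, 4.89 and 5.32) and Olfr995 (0.05, 1.67 and 4.37), at 12.8, 12.3 and 10.7 points below the High Coverage mean. The lowest Stringent percentile of the 80 genes was 82.8, so no High Coverage mean could lie 34.3 points above any of them. The count of 0 was therefore fixed by the Stringent percentiles and says nothing about the High Coverage arrays. Over all scored rows Stringent percentiles went down to 22.7. On the scale of median and MAD the count was 0 too, with 1.95% of all rows.

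Between the High Coverage arrays, High Coverage 1 was lower by more than the limit at 2 genes (background 3.34%) and higher at none (background 1.67%). Olfr1100 had percentiles of 48.8 on High Coverage 1 and 92.6 on High Coverage 2, from scores of -0.51 and 2.10. Olfr1062 had 38.0 and 73.6. Olfr1036 was the most extreme in the other direction, with 84.4 and 50.2, just within the limit, and Olfr1034 beside it had 77.3 and 43.6.

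**Figure D2:**
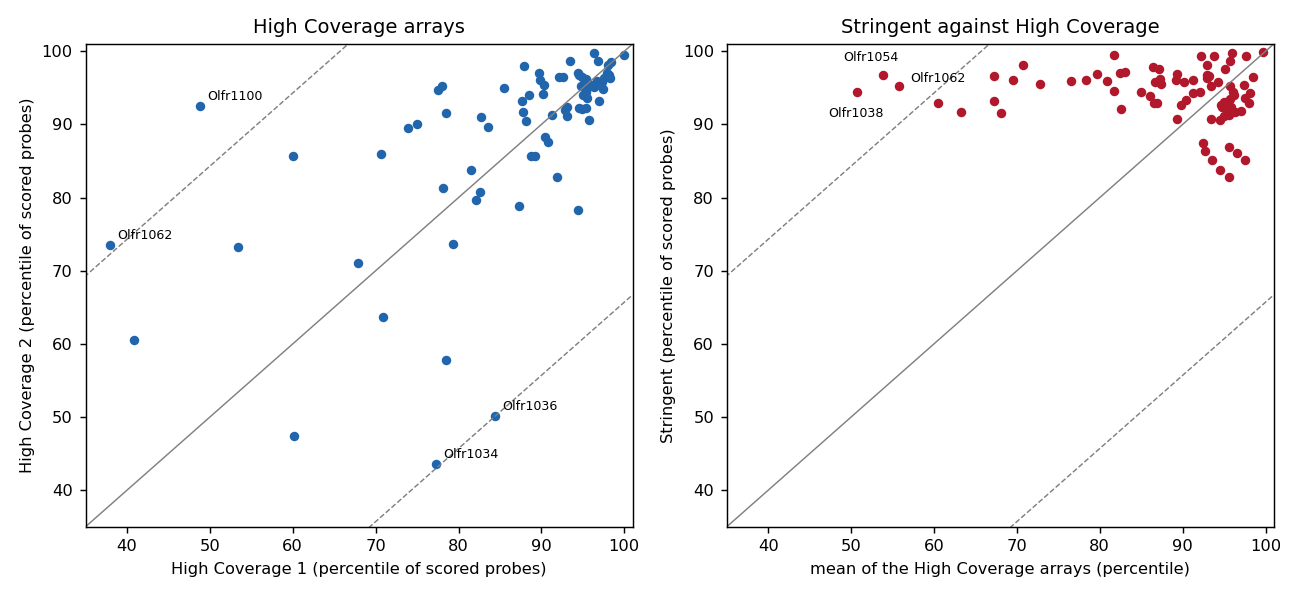
Percentile of each of the 80 genes among scored probes, High Coverage 2 against High Coverage 1 on the left and Stringent against the High Coverage mean on the right, with the line of equality and dashed limits at 34.3 points. Olfr1100 and Olfr1062 lie beyond the limit on the left, and Olfr1038, Olfr1054 and Olfr1062 on the right.

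The shape of the signal around the start was read in bins of 25 bp. On Stringent the median over genes was -0.91 in the bin 75 to 50 bp upstream and -0.02 in the last bin before the position. It was 1.63 in the first bin after it, highest at 3.15 in the bin 50 to 75 bp downstream, and 0.46 in the bin 125 to 150 bp downstream. On High Coverage 1 the median reached 0.37 at 50 to 75 bp, and on High Coverage 2 it reached 1.10 at 75 to 100 bp. The rise thus stood on the transcribed side on each array and was tallest on Stringent.

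The mean score of the 150 bp downstream was above that of the 150 bp upstream in 77 of 80 genes on Stringent, 96.2% against a background of 94.5%. The exceptions were Olfr1030, Olfr1066 and Olfr1084, none of which had a Stringent region. On High Coverage 1 it was 56 genes, 70.0% (background 70.3%), and on High Coverage 2 66 genes, 82.5% (background 74.6%). Positions may have been set on these arrays, so this is a description and not independent support of the positions.

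**Figure D3:**
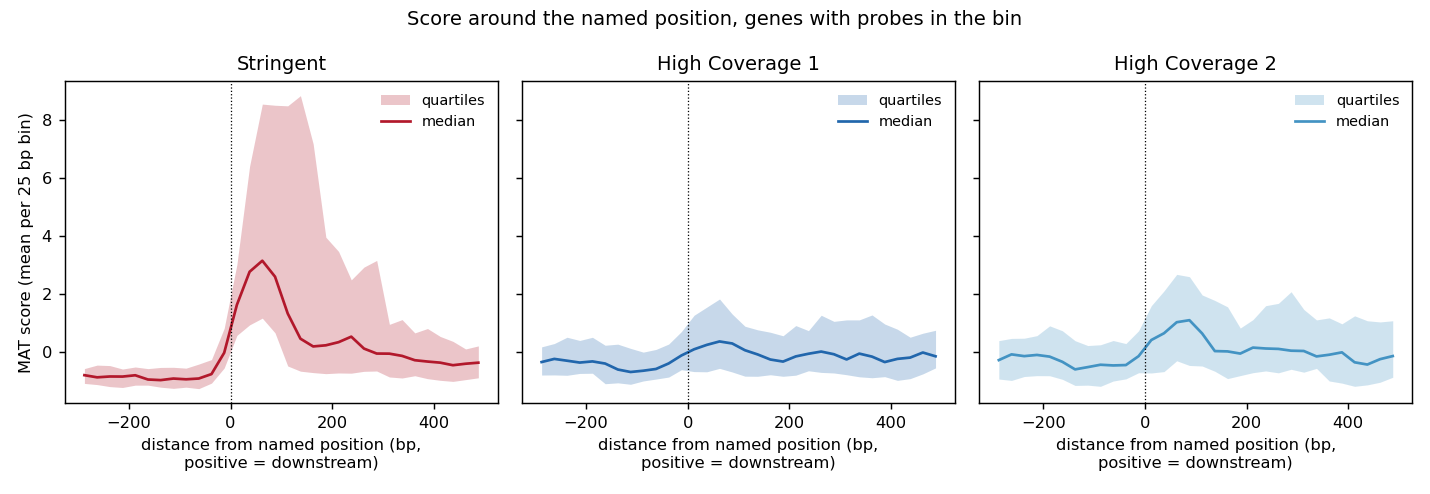
Mean MAT score (no unit) in 25 bp bins by distance from the start position in bp, 1 panel per array, with the median over genes as a line and the quartiles as a band. The Stringent median is highest, 3.15, at 50 to 75 bp downstream.

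Regions at the start began a little upstream of the position. The 5′ edge had a median of -48 bp on Stringent (quartiles -55.5 and -34, 50 genes), -48 bp on High Coverage 1 (-74.5 and -29, 24 genes) and -19 bp on High Coverage 2 (-41 and 15, 37 genes). With regions up to 500 bp away counted, the High Coverage 2 median was 1 bp. The region covered the position itself in 47 of 50 genes on Stringent, 16 of 24 on High Coverage 1 and 21 of 37 on High Coverage 2. These counts are given for these genes only, without a share over all rows. Median lengths were 248, 194 and 180 bp. The score is computed over a window of neighbouring probes, so an edge is not resolved to the base.

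Downstream of the starts lay further regions, called between 100 bp and 10 kb of the position and no further than the next position. They lie where the coding exon of a receptor gene can be, but exons in the build of the files were not analysed here. On Stringent 79 of 80 genes had at least 1 (98.8%, background 88.6%), against 27 with 1 upstream (33.8%, background 28.6%). The exception was Olfr1023, whose start had regions on both High Coverage arrays. High Coverage 1 had downstream regions for 79 genes (background 96.5%) and upstream regions for 46, 57.5% (background 53.8%). High Coverage 2 had them for 78 genes, 97.5% (background 93.7%), and 54 genes, 67.5% (background 51.1%). In the rest of the cluster the downstream shares were 95.9%, 99.2% and 100% on Stringent, High Coverage 1 and High Coverage 2. The upstream shares there were 27.3%, 57.0% and 55.4%.

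On Stringent there were 201 downstream regions, 200 of them distinct, and 48 upstream. Per 100 kb searched this was 26.3 against 6.44, a ratio of 4.08, where all rows had 3.84 and the rest of the cluster 4.13. On High Coverage 1 it was 53.5 against 20.7, and on High Coverage 2 47.7 against 20.5, ratios of 2.59 and 2.33, where all rows had 2.79 and 2.73. The excess on the transcribed side was thus larger on the array of the nested product, here as in the whole table. A gene had 1 Stringent region downstream in 17 cases, 2 in 25, 3 in 23, 4 in 7 and 5 in 5. Olfr1018 and Olfr259 had 6 each.

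The strongest downstream Stringent region of a gene began at a median of 3521 bp from the position (quartiles 2313 and 5016, range 207 to 9098) and was 556 bp long in the median. In 74 of 79 genes it began between 1 and 7 kb away, and in 64 it was 400 bp or longer. Distances and lengths are given for these genes only, without a share over all rows. The score of the strongest region had a median of 19.97 (quartiles 14.99 and 22.91, range 2.91 to 27.37), where the regions at the start had a median of 10.13. Of the 50 genes with both, the downstream region scored higher in 44 (88.0%), against a background of 75.4% and 83.1% in the rest of the cluster. The region at the start scored higher in Olfr1045, Olfr1056, Olfr1057, Olfr1062, Olfr1099 and Olfr1110. All strongest regions were distinct, so no region stood for more than 1 gene.

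Genes without a region at the start mostly had one downstream. Of the 30 genes with no Stringent region at the position, 29 had one downstream (96.7%), against a background of 76.4% and 92.9% in the rest of the cluster. Olfr1101 had the highest of all 79, 27.37, at chr2:86828869-86829723, with no Stringent region at its start. Olfr1111 had 25.87 at chr2:86990342-86990993, and Olfr141 25.39 at chr2:86646723-86647271, both without a region at the start on any array. The lowest were those of Olfr1024 (2.91) and Olfr995 (3.09), 2 of the genes at the lower end of the Stringent scores.

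Most of these places also had a High Coverage region. High Coverage 1 had a region that overlapped 55 of the 79 strongest Stringent regions (69.6%, 58.2 to 79.5), by 1 bp or more, against a background of 77.2% over all rows with such a region. On High Coverage 2 it was 68 (86.1%, 76.5 to 92.8), against 77.4%, and on both 51 (64.6%), against 66.7%. In the rest of the cluster the shares were 81%, 81% and 68.1%. Overlap on neither array was the case for 7 (8.86%), against 12.1%. These were the regions of Olfr1009, Olfr1015, Olfr1024, Olfr1040, Olfr1052, Olfr1079 and Olfr1105.

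**Figure D4:**
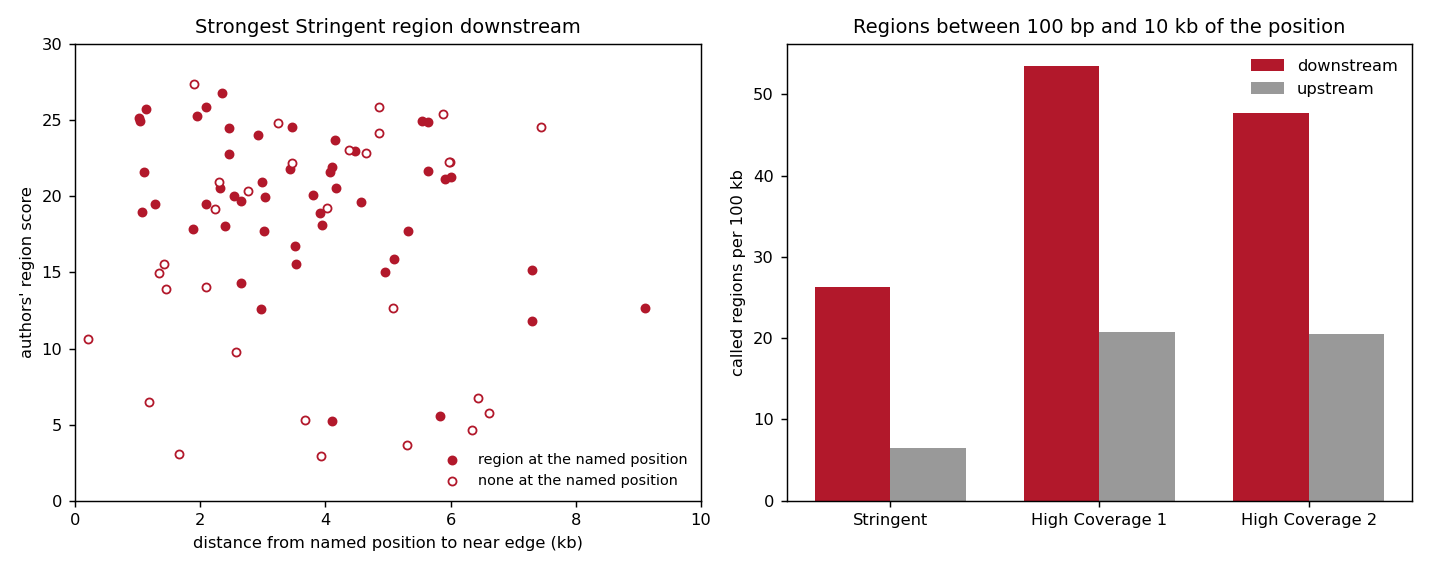
Left, authors' score (no unit) of the strongest downstream Stringent region of 79 genes against the distance of its near edge in kb, filled where a region also lay at the start; right, called regions per 100 kb downstream and upstream of the positions on each array. Most points lie between 1 and 7 kb, and the downstream bar is the taller on each array.

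Olfr1097, Olfr1098, Olfr1099 and Olfr1100 follow each other on the minus strand and had their strongest downstream region at almost the same distance. It began 1029, 1023, 1131 and 1107 bp from the position and scored 24.96, 25.14, 25.74 and 21.59. All 4 had a Stringent region at the start, with scores of 23.20, 22.22, 25.75 and 16.36. The High Coverage patterns of the 4 differed. Olfr1098 and Olfr1099 had regions within 100 bp of the start on both, Olfr1100 on High Coverage 2 and Olfr1097 on neither. Those of Olfr1099 lay upstream of the position, from -197 to -47 bp (High Coverage 1) and from -202 to -37 bp (High Coverage 2). Its Stringent region, from -29 to 737 bp, did not overlap them. These 4 genes were chosen after their values were seen.

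Near-identical neighbours may share product that hybridises to both, so their values may not be independent, which was not tested. Windows of 8 pairs of these genes, 15 genes in all, shared at least 1 run of 25 bases, and 3 of the pairs were next to each other. These are the RefSeq windows described above, which are not placed on the mapped positions. Identity between windows therefore does not give the likeness of the sequence under the probes. Olfr1080 and Olfr1082, printed above, were identical at 276 of 287 aligned bases (96.2%). Olfr1080 had 12.78, 1.10 and 0.99 on Stringent, High Coverage 1 and High Coverage 2, and Olfr1082 had 13.54, 2.13 and 0.43. Both thus had a region on Stringent alone, of 17.72 and 17.48.

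Olfr1057 and Olfr1062, whose windows were at 97.7% identity, were alike on Stringent and not on High Coverage 2. Olfr1057 had 7.70, 0.34 and 3.27, and Olfr1062 had 6.22, -0.73 and 0.19. Their Stringent regions scored 21.56 and 24.08, and a High Coverage 2 region of 18.49 lay at Olfr1057 alone. Olfr1049 and Olfr1051, at 94.6%, differed on Stringent, with 0.23 against 6.64. On the High Coverage arrays Olfr1049 had 1.76 and 2.04 and Olfr1051 had 1.15 and 0.99.

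Olfr1061 (1.09, 2.15 and 4.75) and Olfr1066 (1.64, 2.50 and 4.06), at 94.0%, both had a region on High Coverage 2 alone. Olfr1034 (2.08, 0.30 and -0.67) and Olfr1036 (2.39, 0.71 and -0.53), at 94.6%, had a region on no array. The remaining pairs were less alike in their windows or not adjacent: Olfr996 with Olfr1000 (93.8%), Olfr1058 with Olfr1066 (76.8%) and Olfr141 with Olfr1095 (86.1%). The first and second of these differed in array pattern, and Olfr141 and Olfr1095 both had a region on no array. Genes with like windows thus showed like patterns in some pairs and not in others.

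Along the chromosome the 80 genes spanned 1816443 bp, with 21 on the plus and 59 on the minus strand. Neighbours lay a median of 18192 bp apart (quartiles 11690 and 27800), and 59 of 79 neighbouring pairs shared a strand. Order, spacing and strand were counted over the 80 genes only, and the rows left out were skipped. Counted so, the longest run on 1 strand was 19 genes, Olfr1054 to Olfr1090. Both positions of Olfr1076, which was left out, lie inside this span on the plus strand. The largest gap, 136374 bp, lay between Olfr995 and Olfr996. On the plus strand 12 of 21 genes had a Stringent region, 5 a High Coverage 1 region and 7 a High Coverage 2 region. On the minus strand the counts were 38, 19 and 30 of 59. Counts by strand are given for these genes only, without a share over all rows.

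Of the 3 closest neighbouring pairs, 1 shared its array pattern. Olfr994 and Olfr995, 4128 bp apart on 1 strand, had 2.70 and 0.05 on Stringent, and only Olfr994 had a region there. Olfr1012 and Olfr1013 point away from each other from starts 4270 bp apart, and both had regions on Stringent and High Coverage 2. Olfr1029 had regions on all 3 arrays, while Olfr1030, 4867 bp away, had them on High Coverage alone.

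In stretches of 500 kb, from 85 to 87 Mb, there were 10, 23, 24 and 23 genes. Stringent regions lay at 50%, 60.9%, 70.8% and 60.9% of them, High Coverage 1 regions at 20%, 26.1%, 29.2% and 39.1%, and High Coverage 2 regions at 50%, 34.8%, 41.7% and 60.9%. Shares per stretch rest on few genes and are given without those of stretches elsewhere, so no trend is read from them. The longest run without a High Coverage region was 9 genes, Olfr1031 to Olfr1043. Their scores ran from -0.67 to 1.53 on High Coverage 1 and from -0.67 to 1.48 on High Coverage 2. On Stringent 4 of the 9 had a region, with scores from 1.19 to 8.64 over the run. All 9 had a Stringent region downstream, as had 88.6% of all rows. The whole promoter table held 2 runs as long or longer, and the longest was 10 genes, on chromosome 19. The longest run with a Stringent region here was 10 genes, Olfr1000 to Olfr1014, where the table had 10 runs of that length or more.

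RefSeq (GRCm38.p6) listed 124 receptor genes from Olfr987 to Olfr1111, of which 88 were protein-coding. Of these 81 (92.0%, 84.3 to 96.7) had a row in the promoter table, the genes with 2 positions included. The 7 without a row were Olfr1019, Olfr1022, Olfr1032, Olfr1033, Olfr52, Olfr1053 and Olfr1096. Of the 36 pseudogenes 1 had a row under its RefSeq name, Olfr1010, with scores of 11.85, 0.95 and 0.47 in the same order of arrays as above. Pseudogene rows without an Olfr number had no name to match. The table names Olfr1038 and Olfr1083 were not matched to RefSeq. Matched genes stood in the same order in both.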

How the data were processed

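RLM-RACE products were read on 3 tiling arrays, 1 Stringent and 2 High Coverage, with the groups taken from the sample titles. The deposited score files hold 1 MAT score per probe on a natural log scale, made by the authors from each array alone. The file headers give a bandwidth of 50, a gap of at most 30 and a minimum of 5 probes. The authors called regions at scores of 2.52, 2.53 and 2.99 for Stringent, High Coverage 1 and High Coverage 2, where the headers list an FDR of 0 percent. The region score is theirs. The promoter table gives 1 position and strand per row, on mm9 by the submitters' processing notes. The sources used here do not state how positions were chosen.

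Scores of exactly 0 on all 3 arrays, 5.42% of 2313448 probes, were read as unscored, and 1079 of 1085 rows had a scored probe within 100 bp. A gene's value was its highest score there and its percentile among scored probes of the array. Overlap was at least 1 bp. Shares have exact Clopper-Pearson intervals and medians order-statistic intervals, both at 95%. Shared sequence was 25 identical bases. No p-value was computed. The members, gene lists and limits were chosen with earlier results of these data known. Genes were named by rule: extremes of the lowest and highest percentile, differences beyond the limit, the 3 largest High Coverage differences, closest pairs and end genes. Others with single values were chosen after their values were seen. The planned comparison of protein identity was not analysed here. Steps were tested on simulated data. Alternatives were other windows, mean scores, a median and MAD scale, other region lists and overlaps, and each High Coverage array left out. Software was Python 3.11.15 with scipy 1.17.1, numpy 2.4.6, matplotlib 3.10.9 and pandas 2.3.3.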

Additional observations from a re-analysis of the deposited data

How the results depend on the processing

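Of 70 alternatives to 22 results, 42 stayed within the interval of the main value or 1.5 times its count, 27 moved and 1 changed sign. The cause was not tested. Shares with a region under the alternatives are given without a share over all rows of the table. A window of 50 bp gave a median percentile of 87.5 for High Coverage 1 and 89.8 for High Coverage 2. A window of 500 bp gave medians of 95.9 (Stringent), 95.9 (High Coverage 1) and 95.8 (High Coverage 2). It gave shares with a region of 58.8% and 63.8% on the High Coverage arrays, and counts of 2 genes higher and 1 lower on High Coverage 1 than on High Coverage 2. The mean score gave medians of 92, 70.8 and 77.9 and 16 genes higher on Stringent. The median and MAD scale gave 34, with 1 gene higher and 1 lower on High Coverage 1. Regions spanning the position were found at 20% (High Coverage 1) and 26.2% (High Coverage 2). The top 3608 regions of each array gave 15% and 33.8% at the position, and 90% and 91.2% downstream. Up to 5 kb, downstream shares were 88.8% (Stringent) and 91.2% (High Coverage 1), with median scores of the strongest region, an alternative chosen after seeing the data, of 18.1 and 5.52. The edge on High Coverage 2 went from -19 to 1 bp with regions within 500 bp. Leaving out 1 High Coverage array gave 3 to 6 genes higher on Stringent, 6 of them without High Coverage replicate 2, and 0 lower. The 0 could not be otherwise, since no Stringent percentile of these genes was under 82.8. Over all rows 9.64% were higher without replicate 1 and 11.4% without replicate 2, and 1.2% and 1.11% lower. No paired analysis was possible because the groups share fewer than 2 replicate numbers. Stringent has 1 array, and a percentile near 100 compresses differences between strong signals.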

Other observations

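Rows of the interval that were left out held strong signal too. The positions of Olfr1020, on opposite strands, had Stringent scores of 13.57 and 11.03. Those of Olfr1026 had 9.30 and 13.93 on Stringent and 13.43 and 5.88 on High Coverage 2. The positions of Olfr228 differed, with 10.63 and 1.26 on Stringent. Those of Olfr1076 had 1.77 and 2.24 on Stringent and 2.62 and 5.67 on High Coverage 2. One pseudogene without an Olfr number, at chr2:86032451, had -0.66 (Stringent), 10.75 (High Coverage 1) and 5.78 (High Coverage 2), with regions on both High Coverage arrays. The other, at chr2:86853073, had 0.80, 0.53 and 0.29.

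Between the first and the last gene the authors called 292 Stringent regions, 531 of High Coverage 1 and 508 of High Coverage 2. Of these 18.8%, 5.27% and 8.46% lay within 100 bp of a position of the table. More than 10 kb from each position lay 19, 28 and 28 regions, or 6.51%, 5.27% and 5.51%. These shares are given for this interval only, without those over all regions of an array.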
